A study of Mus musculus with 8 samples.

Results

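The genes described here are 10 genes of endoplasmic reticulum (ER) stress and the integrated stress response, Hspa5, Ddit3, Atf4, Atf6, Xbp1, Ern1, Eif2ak3, Trib3, Chac1 and Asns, in mouse spermatocytes with and without mitofusin 2 (MFN2). They were chosen by gene name, and 11 of the 54532 rows of the expression table carried these names. RNA-seq was performed on pachytene (P) and on leptotene or zygotene (L/Z) spermatocytes from C57BL/6J males at postnatal day (PD) 24 and PD 52. The MFN2 WT libraries came from Mfn2 loxp/loxp mice, and the study's methods describe the WT controls as littermates with a floxed allele on 1 or both chromosomes. The MFN2 cKO libraries came from Mfn2 loxp/loxp mice that also carried Stra8-Cre, a transgene active in male germ cells from early spermatogonia to preleptotene spermatocytes. Every library was therefore from animals with a floxed Mfn2 allele. Cells were separated by sedimentation through bovine serum albumin, which sorts mainly by size, and some somatic cells may remain. Each of the 8 groups had 1 library, so no group had a replicate, and whether animals were pooled or whether P and L/Z cells came from the same mice is not given in the sources used here.

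The ER folds secreted and membrane proteins. When unfolded proteins build up, the chaperone BiP (Hspa5) leaves 3 membrane sensors, IRE1 (Ern1), PERK (Eif2ak3) and ATF6 (Atf6). IRE1 splices Xbp1 mRNA into the form that encodes an active transcription factor, and ATF6 is cut in the Golgi to release another. PERK phosphorylates eIF2alpha, which lowers general translation and favours translation of Atf4. The same eIF2alpha step is reached by kinases that sense amino acid shortage, heme shortage or double-stranded RNA, and the shared downstream programme is called the integrated stress response. ATF4 activates CHOP (Ddit3), Trib3, Chac1 and Asns. MFN2 sits in the outer mitochondrial membrane and also at contacts between mitochondria and the ER. Gene-level FPKM does not show splicing of Xbp1, cleavage of ATF6 or phosphorylation of PERK and eIF2alpha.

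The libraries differed in their cell content along with the labels, and the following values bear on every result. Read counts on genes were between 14340665 and 20379950. Mfn2 itself was at 77.1, 82.2, 62.2 and 97.5 FPKM in the WT libraries P PD 24, L/Z PD 24, P PD 52 and L/Z PD 52, and at 39.6, 34.3, 50.1 and 47.9 FPKM in the matching cKO libraries, which was 51.3%, 41.8%, 80.5% and 49.1% of WT. The floxed stretch is 1 exon of Mfn2, and gene-level FPKM counts reads on all exons. The study reported very low mRNA of that exon and low MFN2 protein in cKO spermatocytes. The summed FPKM of 15 markers of round and elongating spermatids was 1479 to 5528 in P WT, 167 to 2672 in P cKO, 2983 to 12462 in L/Z WT and 626 to 21949 in L/Z cKO libraries. These markers were higher in L/Z than in P libraries, 14 of 15 past the test, although spermatids arise after the pachytene stage. The 8 Leydig cell markers were each higher in cKO in all 4 pairs, with sums 6.82, 5.61, 2.55 and 3.61 times WT in P PD 24, L/Z PD 24, P PD 52 and L/Z PD 52. The sums of 9 macrophage markers were 2.01, 2.35, 2.26 and 6.77 times WT, and those of 10 immediate early genes, which are induced within minutes of a stimulus such as cell handling, were 1.55, 2.04, 2.56 and 3.31 times WT in the same order. Sertoli cell markers (9 genes) summed to 293 to 778 FPKM in P and to 27.7 to 256 FPKM in L/Z libraries. In the same order of pairs, these sums were 1.23, 0.841, 0.466 and 2.63 times WT. No marker of these 5 lists was at 0 in any library. Sums of 8 spermatogonial markers were 1.16, 1.34, 0.461 and 0.490 times WT in that order. Those of 9 leptotene and zygotene markers were 0.937, 1.33, 0.813 and 0.727 times WT. Of 8 leptotene and zygotene markers tested, 1 (Dmc1) was higher in L/Z and 3, among them Hormad1 and Sycp3, were higher in P. Of 9 pachytene markers, 2 were higher in P, including Piwil1 at 8.49-fold, and 2 were lower. Both stage labels were thus only partly matched by their own markers.

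The 10 genes spanned a wide range of levels. FPKM counts sequenced fragments relative to gene length and to the size of the library and can be compared between genes. The mean over the 8 libraries was 198 FPKM for Hspa5, 34.5 for Atf4, 28.7 for Ddit3, 21.6 for Asns, 5.87 for Xbp1, 2.93 for Atf6, 2.25 for Ern1, 1.18 for Chac1, 1.14 for Eif2ak3 and 0.539 for Trib3. Hspa5 stood apart, since its lowest level, 138 FPKM, was above the highest level of Atf4, 50.6 FPKM. The ranges of Atf4, Ddit3 and Asns overlapped, as did those of Xbp1, Atf6 and Ern1 and those of Chac1, Eif2ak3 and Trib3. The lowest Ern1 level, 1.43 FPKM, was below the highest Chac1 level, 2.20 FPKM. In the L/Z MFN2 cKO PD 24 library, Asns at 9.23 FPKM was level with Xbp1 at 9.27 FPKM. The sensor kinases Ern1 and Eif2ak3 rested on 69 to 489 reads a library, Chac1 on 14 to 68 and Trib3 on 8 to 37, so that counting error is large for the last pair.

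**Figure D1:**
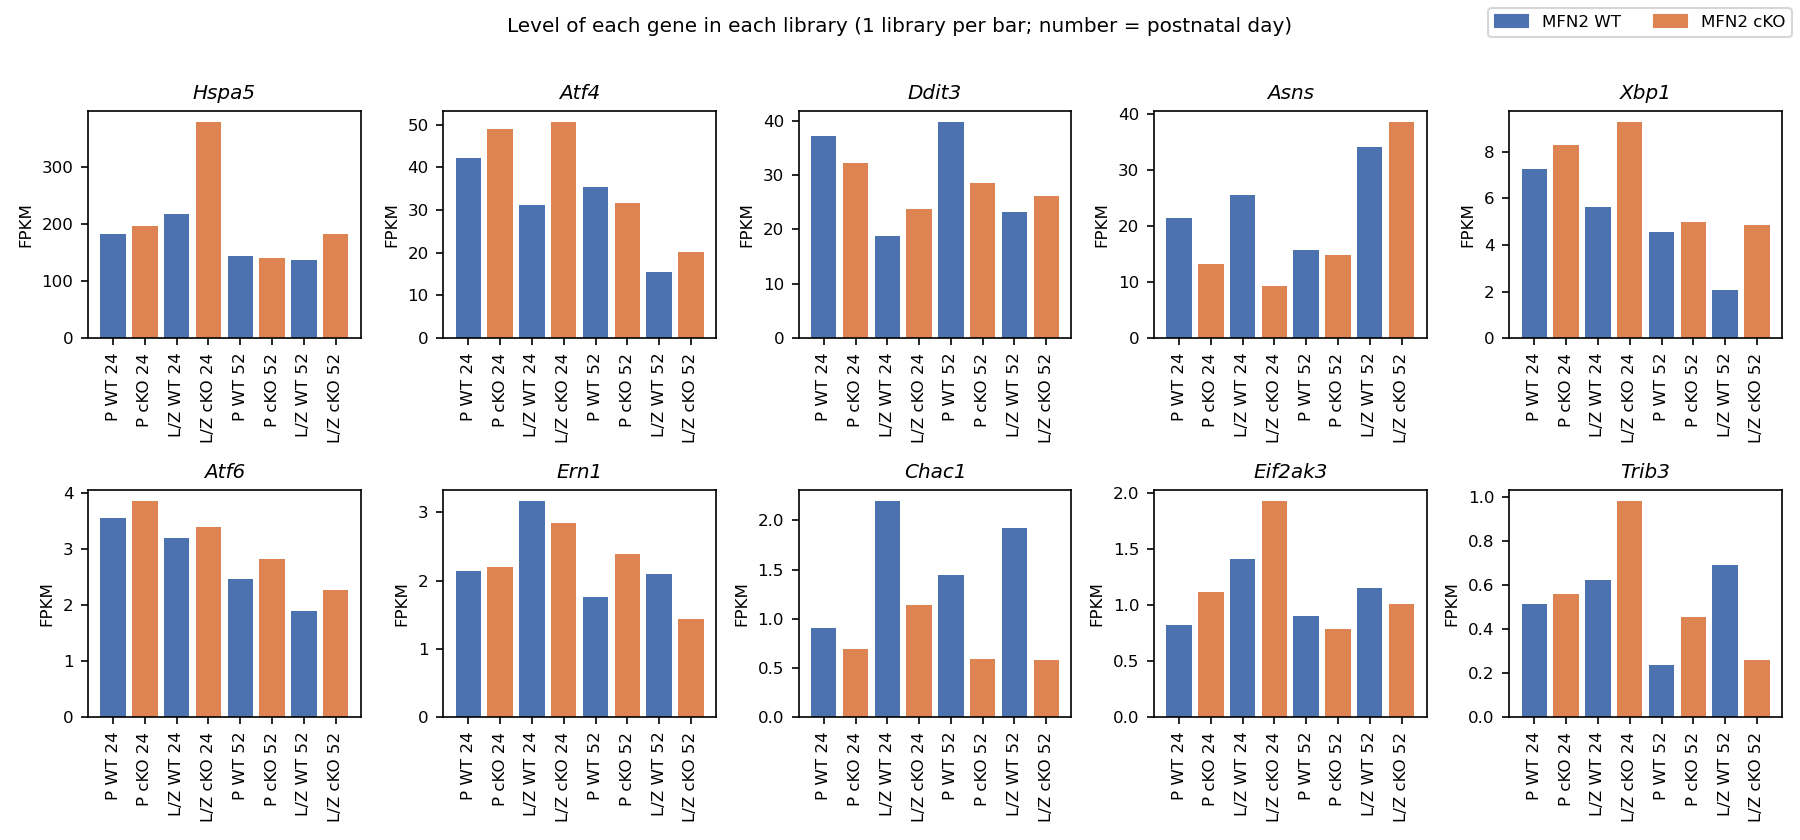
FPKM (vertical axis, starting at 0, with its own scale for each gene) of the 10 genes in the 8 libraries, with 1 bar per library, MFN2 WT in blue and MFN2 cKO in orange. Hspa5 was highest in L/Z MFN2 cKO PD 24 at 379 FPKM, while Asns was lowest there at 9.23 FPKM.

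On the GRCm38 build, Hspa5 (ENSMUSG00000026864) lies at chr2:34771970-34777547 on the plus strand, Atf4 (ENSMUSG00000042406) at chr15:80255184-80257541 on the plus strand, and Xbp1 (ENSMUSG00000020484) at chr11:5520659-5525893 on the plus strand. Ddit3 (ENSMUSG00000025408) lies at chr10:127290774-127296288 on the plus strand, and it overlaps Mars by 68 bases and Gm4189 by 15 bases, both on the minus strand. A second row named Ddit3 (ENSMUSG00000116429, 105 bases) lies within the first and was listed at 0 in all 8 libraries, and the row with reads is the one described. Asns (ENSMUSG00000029752) lies at chr6:7675169-7693254 on the minus strand and Chac1 (ENSMUSG00000027313) at chr2:119351229-119354381 on the plus strand. Atf6 (ENSMUSG00000026663) lies at chr1:170704674-170867771, minus strand, and Ern1 (ENSMUSG00000020715) at chr11:106394650-106487852, minus strand. Eif2ak3 (ENSMUSG00000031668) lies at chr6:70844515-70905245, plus strand, and Trib3 (ENSMUSG00000032715) at chr2:152337422-152344032, minus strand. The Eif2ak3 interval holds Gm43292 on the opposite strand (2449 bases) and Gm23346 on its own strand (136 bases), and the Atf6 interval holds Gm25235 and Gm23523 on its own strand (107 bases each). Whether reads were counted by strand is not given in the sources used here, so reads in these overlaps cannot be told apart. Each interval covers the whole gene with its exons and introns.

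Promoters of these genes are known to hold response elements of the pathway, and the 3 in which a search found one are shown around the site. A RefSeq promoter of build GRCm38.p6 was matched for 9 of the 10 genes, all but Atf6. In the 250 bases before the start of each, both strands were searched for the ER stress response element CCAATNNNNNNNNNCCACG, through which ATF6 acts on chaperone genes, and for the C/EBP-ATF composite element TGATGNAAN, through which ATF4 acts. The first was found in Hspa5 alone among the 9, and in 0.113% of all 32851 promoters. The second was found in Chac1 and Asns, and in 3.44% of all promoters. The matches do not overlap each other. Capitals mark the match, and each line reads 5′ to 3′ along the gene's own strand.
Hspa5: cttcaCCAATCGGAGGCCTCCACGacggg
Chac1: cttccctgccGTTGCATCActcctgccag
Asns: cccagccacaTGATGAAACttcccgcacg
The Hspa5 line is chr2:34772020-34772048, plus strand, with its element 65 to 47 bases before the RefSeq start. The Chac1 line is chr2:119351038-119351066, plus strand, 194 to 186 bases before the start, and there the element reads on the opposite strand. The Asns line is chr6:7693214-7693242, minus strand, 23 to 15 bases before the start. The RefSeq start differs from the gene start of the expression table, and the Hspa5 and Asns lines lie inside the gene intervals given above. A match of letters describes the sequence and does not show that a factor was bound in these cells.

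The first comparison asked whether the ER stress genes differed between MFN2 cKO and WT cells of the same stage and age. Hspa5, Atf4 and Xbp1 were higher in cKO in both L/Z pairs, and the corresponding differences in P cells were small. Chac1 was lower in cKO in all 4 pairs. Asns was lower in cKO at PD 24 in both stages. None of these differences over pairs passed the test, as given after the single genes. Within a pair there was 1 library a side, so a pair difference has no replicate check, and the intervals given are 95% exact binomial intervals on the reads that cover counting error alone. Changes are differences in log2(FPKM + 1), which understates the change of genes near or below 1 FPKM.

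Among the 3 sensors, differences were small. Ern1 (IRE1) was at 2.13 and 1.76 FPKM in the P WT libraries of PD 24 and PD 52 and at 2.20 and 2.39 FPKM in P cKO. In L/Z cells Ern1 was at 3.17 and 2.09 FPKM in WT and at 2.85 and 1.43 FPKM in cKO. The cKO library was thus the higher one in P and the lower one in L/Z at each age, with intervals that left out 0 in P PD 52 (0.30, 0.13 to 0.47) and in L/Z PD 52 (-0.35, -0.52 to -0.17). Eif2ak3 (PERK) was at 0.823, 1.41, 0.900 and 1.15 FPKM in WT and at 1.12, 1.93, 0.789 and 1.01 FPKM in cKO, for P PD 24, L/Z PD 24, P PD 52 and L/Z PD 52. It was higher in cKO at PD 24, by 0.21 in P and 0.28 in L/Z, with both intervals above 0, and both PD 52 intervals included 0. Atf6 was at 3.56, 3.19, 2.47 and 1.89 FPKM in WT and at 3.86, 3.40, 2.83 and 2.28 FPKM in cKO in that order. It was higher in cKO in 4 of 4 pairs by 0.07 to 0.18, and 1 of the 4 intervals, that of L/Z PD 52, was above 0.

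The transcription factors differed more, and Xbp1 and Atf4 mainly in L/Z cells. Xbp1, the factor downstream of IRE1, was at 5.64 FPKM in L/Z WT and 9.27 in L/Z cKO at PD 24, and at 2.08 and 4.87 FPKM at PD 52. These were changes of 0.63 (0.46 to 0.80) and 0.93 (0.68 to 1.18), or 1.64 and 2.34 times WT in FPKM. In P cells Xbp1 was at 7.26 and 8.29 FPKM at PD 24 and at 4.55 and 4.98 at PD 52. It was therefore higher in cKO in 4 of 4 pairs, with an interval that included 0 in P PD 52 (-0.11 to 0.33).

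Atf4, the central factor of the integrated stress response, was at 31.2 FPKM in WT and 50.6 in cKO L/Z cells at PD 24, and at 15.4 and 20.2 FPKM at PD 52. The L/Z changes were 0.68 (0.58 to 0.78) and 0.37 (0.21 to 0.52). In P cells it went from 42.2 to 49.0 FPKM at PD 24 and from 35.4 to 31.8 at PD 52, changes of 0.21 (0.13 to 0.30) and -0.15 (-0.27 to -0.04). Ddit3, which encodes CHOP, a factor that promotes cell death when stress persists, was lower in cKO in both P pairs, at 37.2 against 32.3 FPKM and at 39.8 against 28.6 FPKM. In L/Z cells it was higher in cKO, at 18.9 against 23.7 FPKM and at 23.2 against 26.2 FPKM. The 4 intervals left out 0, with changes of -0.20 and -0.46 in P and 0.31 and 0.17 in L/Z.

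Hspa5 (BiP), the chaperone used as the general readout of ER load, was at 217 FPKM in L/Z WT and 379 in L/Z cKO at PD 24, and at 138 and 182 FPKM at PD 52. Its L/Z changes were 0.80 (0.78 to 0.83) and 0.40 (0.36 to 0.44), or 1.75 and 1.32 times WT. In P cells it was at 182 and 197 FPKM at PD 24 and at 145 and 141 FPKM at PD 52, changes of 0.11 (0.08 to 0.14) and -0.03 (-0.08 to 0.01). The P PD 52 difference took the opposite sign, 0.07, under a further scaling of the libraries. The Hspa5 difference was larger in L/Z than in P at both ages, as were those of Atf4 and Xbp1.

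Chac1 and Trib3, both ATF4 target genes, had few reads. Chac1, an enzyme that breaks down glutathione, was at 0.908, 2.20, 1.45 and 1.92 FPKM in WT and at 0.690, 1.14, 0.589 and 0.585 FPKM in cKO for P PD 24, L/Z PD 24, P PD 52 and L/Z PD 52. Its changes were -0.18, -0.58, -0.62 and -0.88, and the last 3 intervals were below 0. These rested on 30 reads against 21, 68 against 33, 38 against 14 and 47 against 14. Trib3, a pseudokinase that dampens CHOP and ATF4 activity, was at 0.513, 0.623, 0.235 and 0.692 FPKM in WT and at 0.557, 0.982, 0.454 and 0.258 FPKM in cKO. It was below 1 FPKM in every library and was left out of the fits, and its 1 interval that left out 0 was that of L/Z PD 52 (-0.43, -0.71 to -0.07).

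Asns, which makes asparagine, showed the largest pair difference of the 10 genes on the log2(FPKM + 1) scale. With a pseudocount of 0.1 that of Chac1 in L/Z PD 52 was larger, at -1.56 against -1.45. Asns was at 25.5 FPKM in L/Z WT and 9.23 in L/Z cKO at PD 24, a change of -1.37 (-1.52 to -1.23), or 36.2% of WT. In P cells at PD 24 it was at 21.4 and 13.3 FPKM, a change of -0.65 (-0.78 to -0.52). At PD 52 Asns was at 15.7 and 14.8 FPKM in P cells and at 34.1 and 38.6 FPKM in L/Z cells, changes of -0.08 (-0.23 to 0.07) and 0.18 (0.07 to 0.28). The cKO library was the lower one at PD 24 and differed little at PD 52.

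**Figure D2:**
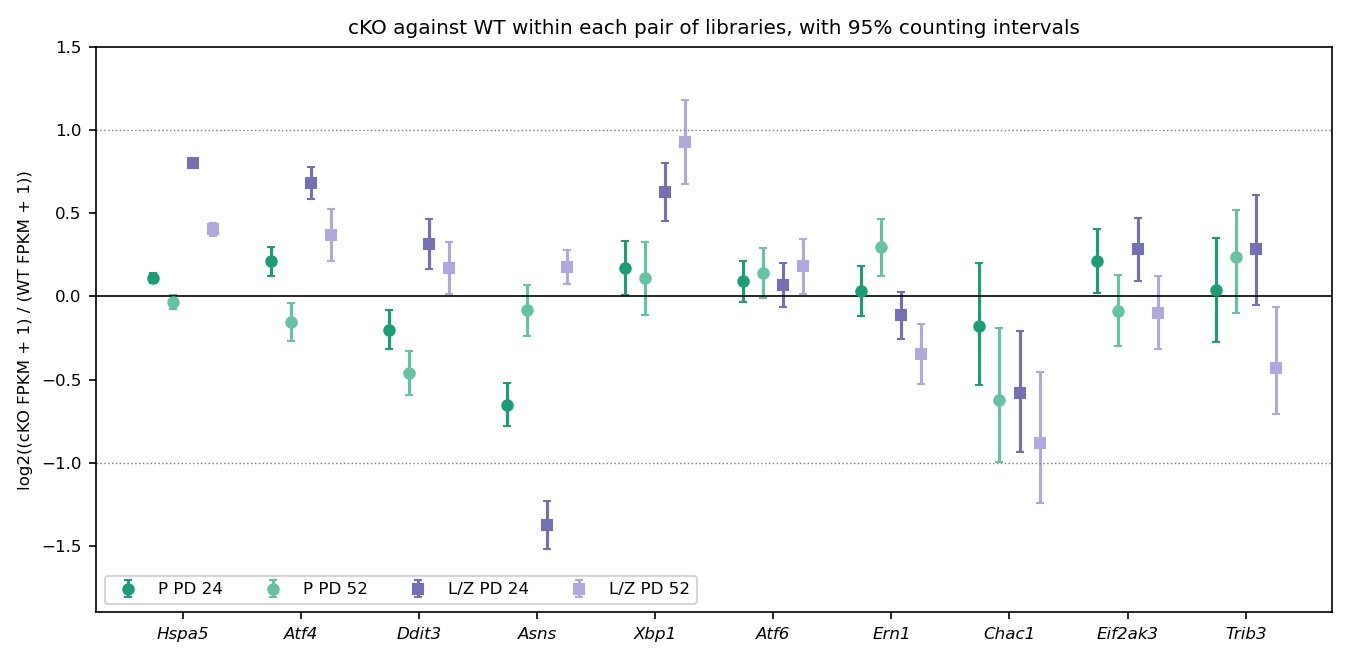
Change of each gene between the cKO and WT library of a pair, as log2((cKO FPKM + 1)/(WT FPKM + 1)) on the vertical axis, with circles for P, squares for L/Z, darker shades for PD 24 and lighter ones for PD 52. Bars are 95% counting intervals and dotted lines mark a 2-fold change on this scale, which Asns in L/Z PD 24 alone passed, at -1.37.

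Read against all genes, pair differences of 2-fold or more were not rare. Changes of 2-fold or more came to 0 of 8 members above 1 FPKM in P PD 24, 0 of 8 in P PD 52, 1 of 9 in L/Z PD 24 and 0 of 9 in L/Z PD 52, against 8.08%, 11%, 10.5% and 7.95% of all genes. Intervals lay above 0 for 4 of 8, 1 of 8, 5 of 9 and 6 of 9 members in that order, against 18.1%, 27.2%, 37.8% and 29.5% of genes. Intervals lay below 0 for 2 of 8, 3 of 8, 2 of 9 and 2 of 9 members, against 38.2%, 35.4%, 25.9% and 24.8% of genes. An interval narrows with the reads of its gene, and members and all genes were not matched for reads. The median change of the members was 0.10, -0.06, 0.28 and 0.18, beside -0.10, -0.05, 0.08 and 0.02 over all genes. No member had an interval on the same side of 0 in all 4 pairs, against 2.22% of genes above 0 and 0.581% below 0 in all 4.

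Across the 4 pairs, limma called no member changed by genotype at an adjusted p under 0.05, against 0.132% of 21175 genes called higher and 0.00472% called lower. At an unadjusted p under 0.05 there were 2 of the 9 members tested, against 6.93% of genes. These were Chac1, with a cKO minus WT difference of -0.57 ± 0.17 (SE, 4 pairs, limma adjusted p = 0.518), and Xbp1, with 0.46 ± 0.18 (limma adjusted p = 0.701). Hspa5 differed by 0.32 ± 0.19 (limma adjusted p = 0.800) and Atf4 by 0.28 ± 0.18 (limma adjusted p = 0.832). With the L/Z PD 24 pair left out, the Hspa5 and Atf4 differences were 0.16 and 0.14. Chac1 was lower in 4 of 4 pairs and Xbp1 higher in 4 of 4.

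At PD 24 alone, limma called 1.46% of genes and no member. Asns came nearest, at -1.01 ± 0.25 (2 of 2 pairs lower, limma adjusted p = 0.139). It was the 1 member with an unadjusted p under 0.05, against 12.3% of genes. At PD 52, 0.0236% of genes and no member were called. The 1 member with an unadjusted p under 0.05, against 9.59% of genes, was Chac1, at -0.75 ± 0.22 (limma adjusted p = 0.373). The difference of the genotype effect between ages called 0.0142% of genes and no member. Asns was the 1 member at an unadjusted p under 0.05 (1.06 ± 0.35, limma adjusted p = 0.306), against 12.5% of genes. The difference of the genotype effect between stages, a fit added after the data had been seen, called 0% of genes and no member. No member reached an unadjusted p under 0.05 there, against 4.14% of genes. Hspa5 had a P minus L/Z difference of effects of -0.56 ± 0.25, Xbp1 of -0.64 ± 0.31, Ddit3 of -0.57 ± 0.29 and Atf4 of -0.49 ± 0.31, each with a limma adjusted p of 0.972. A larger response in L/Z than in P cells was therefore not established by these 8 libraries.

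The sums of Leydig, macrophage and immediate early markers, given above, were higher in cKO in every pair, and Hspa5, Atf4 and Xbp1 were higher in both L/Z pairs. In P PD 52 those sums were 2.55, 2.26 and 2.56 times WT, while Hspa5 changed by -0.03 and Atf4 by -0.15. The part of Leydig cells, macrophages and the immediate early response in the Hspa5, Atf4 and Xbp1 differences was not tested. In bulk samples such as these, fewer cells of a type and less RNA per cell cannot be told apart. The Asns differences in both PD 24 pairs and in L/Z PD 52 had the same direction as those of the spermatid markers. All 15 spermatid markers were lower in cKO in both PD 24 pairs, with sums at 0.113 and 0.210 times WT, and all 15 were higher in cKO in L/Z PD 52, with a sum at 1.76 times WT. In P PD 52, 14 of 15 were lower, and the sum was at 0.483 times WT, while Asns differed by -0.08. Other comparisons parted. From PD 24 to PD 52 in P WT, Asns went from 21.4 to 15.7 FPKM and the spermatid sum from 1479 to 5528 FPKM. In cKO PD 24, Asns was higher in P than in L/Z (13.3 against 9.23 FPKM), and the sum was lower (167 against 626 FPKM). The testis ER chaperone Calr3 was also lower in cKO in both PD 24 pairs, at 7.68 (WT) against 1.07 FPKM (cKO) in P and 20.5 against 2.99 in L/Z. At PD 52 it was at 8.58 against 8.71 FPKM in P and 33.0 against 42.3 in L/Z. Pdilt of the same list was lower in cKO in both PD 24 pairs too. The list's Clgn was at 292 against 238 FPKM in P PD 24 and 201 against 209 in L/Z PD 24. At PD 52 Clgn was at 223 against 285 FPKM in P and 258 against 257 in L/Z. The part of spermatid RNA in the Asns difference was not tested.

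**Figure D3:**
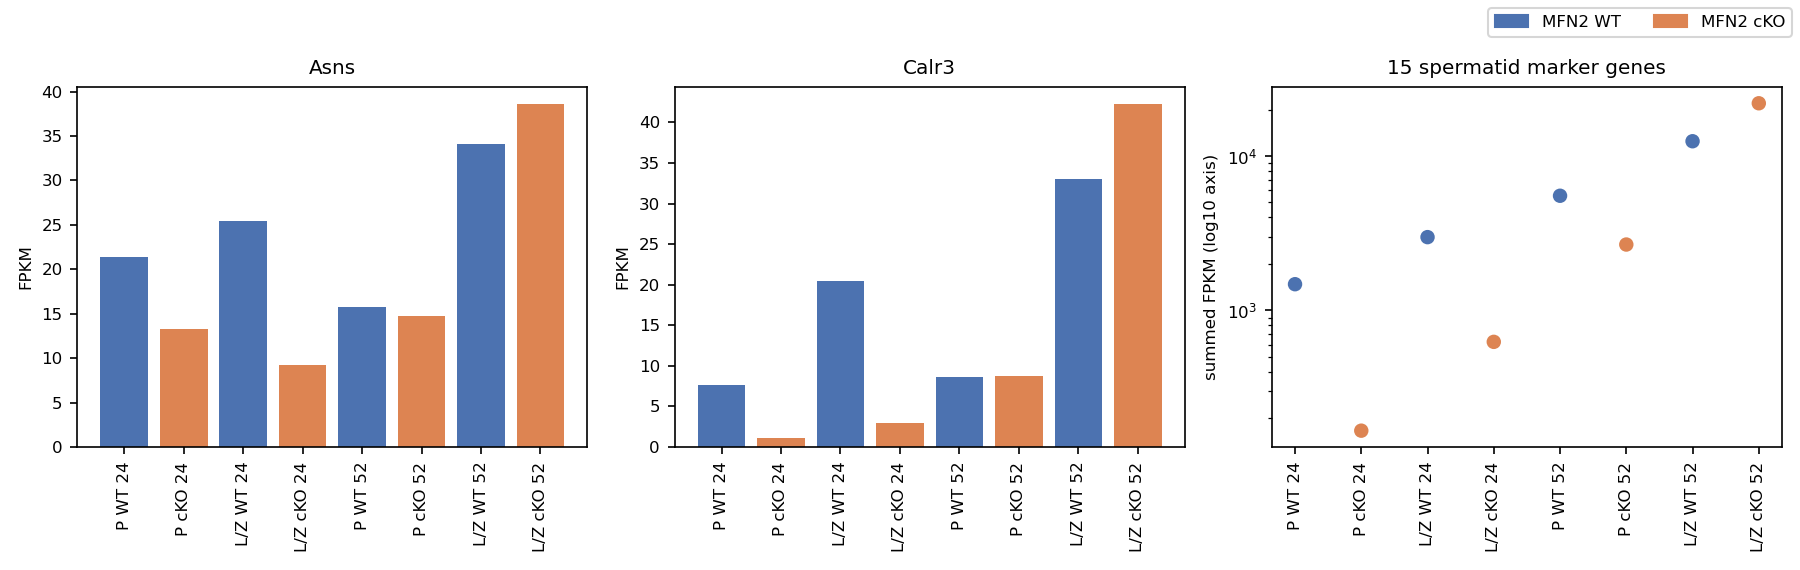
Asns and Calr3 in FPKM (left and middle, bars from 0) and the summed FPKM of 15 spermatid markers (right, points on a log10 axis) in the 8 libraries, MFN2 WT in blue and MFN2 cKO in orange. In both PD 24 pairs the cKO library was lower in each panel, with Asns at 9.23 against 25.5 FPKM in L/Z.

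The second comparison set P against L/Z cells of the same genotype and age. Ddit3 was higher in P in 4 of 4 matched pairs, and its P libraries (28.6 to 39.8 FPKM) lay above its L/Z libraries (18.9 to 26.2 FPKM) without overlap, as was true of 10% of all genes. The difference was 0.56 ± 0.18 (SE, limma adjusted p = 0.0539), or 1.48-fold. It missed the threshold, and of the settings run it passed only when protein-coding genes alone were tested (limma adjusted p = 0.0384). Without the FPKM filter the limma adjusted p was 0.105, and with a pair left out it was 0.0638 to 0.218. The Ddit3 difference was larger in WT, at 0.94 for PD 24 and 0.75 for PD 52, than in cKO, at 0.43 and 0.12.

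Limma called no member in this comparison, against 12.4% of genes called higher in P and 16% called lower. An unadjusted p under 0.05 was reached by 2 of 9 members, against 41.8% of genes. The second of these was Atf4, at 0.54 ± 0.21 (limma adjusted p = 0.0952), higher in P in 3 of 4 pairs. Atf6 was higher in P in 4 of 4 pairs by 0.12 to 0.26, and Eif2ak3 was lower in P in 4 of 4 by 0.17 to 0.47, with limma adjusted p-values of 0.311 and 0.176. Asns was lower in P in 3 of 4 pairs (-0.54 ± 0.30, limma adjusted p = 0.207), the exception being cKO PD 24. Without that pair the difference was -0.88 and passed (limma adjusted p = 0.0462). Without the WT PD 24, WT PD 52 or cKO PD 52 pair it was -0.64, -0.36 or -0.28. None of these passed (limma adjusted p = 0.282, 0.407 and 0.553). Hspa5 was lower in P in 3 of 4 pairs, from -0.94 in cKO PD 24 to 0.07 in WT PD 52. The Sertoli markers were higher in P, and the spermatid, macrophage and peritubular myoid markers were higher in L/Z. Of the myoid markers tested, 4 of 4 were called, with Acta2 at 5.37-fold. The part of these cells in the stage differences was not tested.

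The third comparison set PD 52 against PD 24 within a stage and genotype, and here 3 members passed the test. Xbp1, Atf4 and Hspa5 were lower at PD 52 in 4 of 4 matched pairs. Xbp1 was at 7.26, 8.29, 5.64 and 9.27 FPKM at PD 24 in P WT, P cKO, L/Z WT and L/Z cKO and at 4.55, 4.98, 2.08 and 4.87 FPKM at PD 52. The ages did not overlap, as was true of 6.45% of genes in this direction. The Xbp1 difference was -0.78 ± 0.15 (SE, limma adjusted p = 0.0240), or 1.72-fold.

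Atf4 was lower at PD 52 by 0.25 in P WT, 0.61 in P cKO, 0.98 in L/Z WT and 1.29 in L/Z cKO, with a fitted difference of -0.78 ± 0.20 (limma adjusted p = 0.0447). Its ages overlapped, since P WT PD 52 at 35.4 FPKM was above L/Z WT PD 24 at 31.2 FPKM. Hspa5 was lower by 0.33, 0.47, 0.65 and 1.05 in the same order, with a fitted difference of -0.63 ± 0.15 (limma adjusted p = 0.0373). Its ages overlapped by 1 library a side, at 182.5 FPKM in L/Z cKO PD 52 and 182.02 FPKM in P WT PD 24. For Xbp1, Atf4 and Hspa5 the step was larger in L/Z than in P cells of the same genotype. The 3 calls stood against 5.41% of genes called lower and 11.9% called higher at PD 52.

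These calls depended on the settings. None of the 3 was called without the FPKM filter, Xbp1 alone was called without the mean-variance trend, and Hspa5 was lost without the block of matched pairs (limma adjusted p = 0.0524). No member was called once the L/Z WT, the L/Z cKO or the P cKO pair was left out, while the 3 calls stood without the P WT pair, and without the P cKO pair limma called 0 of all genes, with 5119 of 20621 at an unadjusted p under 0.05. The direction did not change in any of these fits.

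The other 6 members tested by age were not called. Atf6 was lower at PD 52 in 4 of 4 pairs, at 1.89 to 2.83 FPKM against 3.19 to 3.86 FPKM with no overlap (-0.43 ± 0.13, limma adjusted p = 0.0728). Ern1, Eif2ak3 and Chac1 were each lower in 3 of 4 pairs, with differences of -0.30, -0.22 and -0.07. Ddit3 hardly differed, at 0.09 ± 0.14 (limma adjusted p = 0.658). Asns went the other way in 3 of 4 pairs, from 9.23 to 38.6 FPKM in L/Z cKO, 4.18-fold, but from 21.4 to 15.7 FPKM in P WT (0.52 ± 0.37, limma adjusted p = 0.340). Spermatid markers were higher at PD 52 (14 of 15 called). Sertoli markers (6 of 9), immediate early genes (8 of 10) and peritubular myoid markers (2 of 4) were lower. The part of these marker groups in the fall of Xbp1, Atf4 and Hspa5 was not tested.

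**Figure D4:**
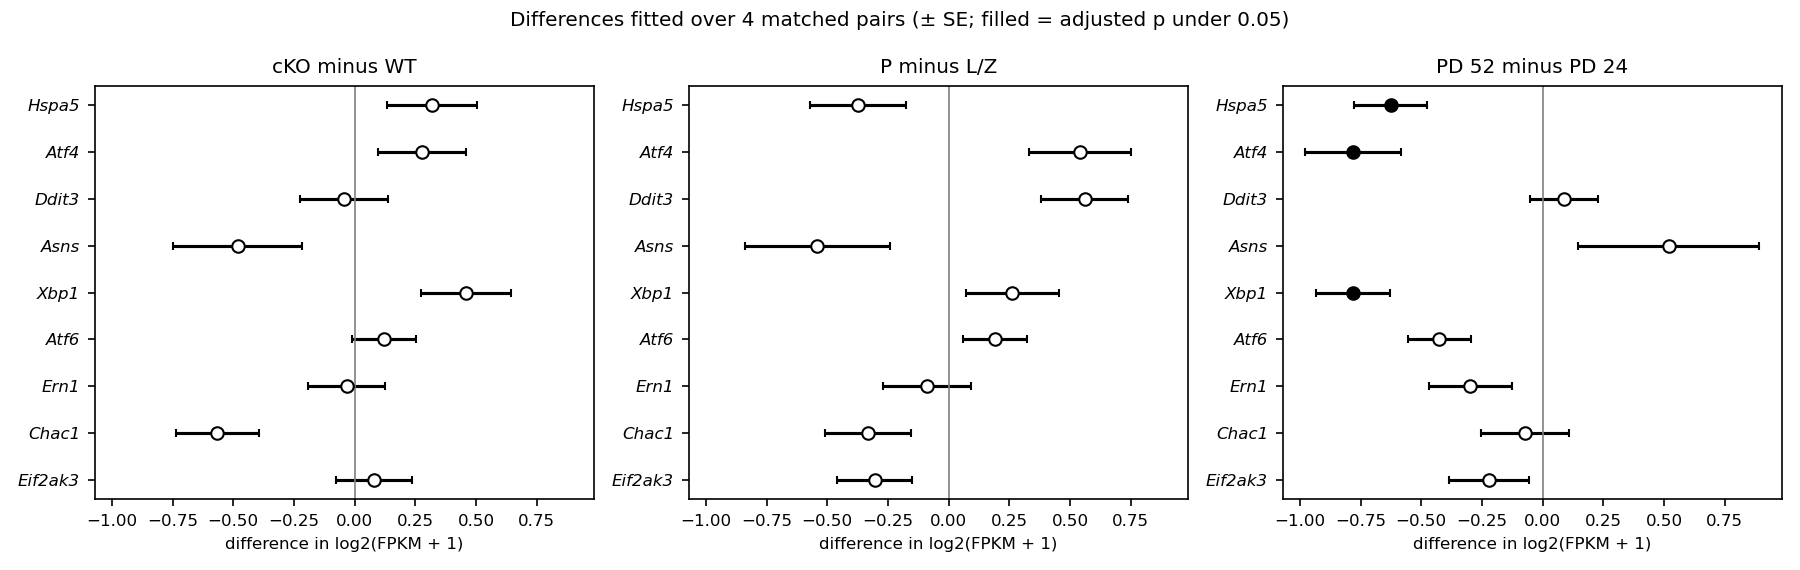
Fitted differences in log2(FPKM + 1) (horizontal axis) of the 9 genes tested, with bars for ± SE, for cKO minus WT, P minus L/Z and PD 52 minus PD 24, each over 4 matched pairs. Filled points passed an adjusted p of 0.05, and these were Hspa5, Atf4 and Xbp1 in the age comparison.

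Over the 8 libraries Atf4, Atf6 and Xbp1 ran together, with a Pearson r of log2(FPKM + 1) of 0.91 for each of their 3 pairings. Hspa5 ran closest to Eif2ak3, at 0.86, and Atf4 and Asns ran opposite, at -0.86, the lowest of the 45 pairings of members. These describe 8 libraries that share stages, ages and genotypes and are not independent samples of one group. Among 9822 protein-coding genes above 1 FPKM in every library, the patterns most like Hspa5 were those of Snx2, Atp6ap2 and Rnf130 (r of 0.98, 0.97 and 0.97). Those most like Ddit3 were Khdrbs3, Tusc1 and Ntpcr (0.99, 0.98 and 0.98).

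The wider pathway was read from 6 gene lists. In the genotype comparison, limma called no gene of these lists, with an unadjusted p under 0.05 for 0 of 19 ER chaperones and folding enzymes, 0 of 17 genes of ER-associated degradation, 1 of 8 ER membrane sensors and bZIP factors, 1 of 16 eIF2 kinases, phosphatases and eIF2B subunits, 4 of 28 ATF4 and CHOP target genes and 0 of 3 testis ER chaperones. Of all genes, 6.93% had an unadjusted p under 0.05. Medians of the lists were -0.03, 0.00, -0.03, 0.02, 0.00 and -0.43, beside -0.04 over all genes. In the L/Z PD 24 pair, 15 of 19 chaperones, 12 of 16 eIF2 genes and 21 of 27 target genes above 1 FPKM had higher values in cKO, beside 57.0% of all genes. In L/Z PD 52 the corresponding counts were 7 of 19, 7 of 15 and 12 of 26, beside 53.0%. In P cells they were 8 of 19, 7 of 16 and 17 of 24 at PD 24, beside 37.9%, and 6 of 19, 7 of 16 and 8 of 24 at PD 52, beside 45.6%. For ER-associated degradation, sensors and bZIP factors, and testis chaperones, the L/Z counts were 11 of 17, 5 of 8 and 1 of 3 at PD 24. At PD 52 they were 9 of 17, 3 of 6 and 2 of 3. In P cells these lists had 7 of 17, 4 of 6 and 0 of 3 at PD 24. At PD 52 they had 6 of 17, 2 of 6 and 3 of 3.

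By stage, 3 ER chaperones and folding enzymes were called higher in P and 1 lower, and the counts of this paragraph stand beside 12.4% of all genes called higher and 16% called lower. Those higher were Hyou1, a large HSP70-related chaperone (1.48 ± 0.19, 2.79-fold), Sdf2l1 (1.30 ± 0.19, 2.46-fold) and Dnajc3, a co-chaperone of BiP (0.79 ± 0.14, 1.73-fold). In ER-associated degradation, the pathway that sends misfolded proteins to the proteasome, 3 of 17 were called higher in P and none lower, led by the ubiquitin ligase Syvn1 (1.27 ± 0.18). Of 28 ATF4 and CHOP target genes, 6 were called higher and 3 lower. The 3 largest were the stress-induced mTORC1 inhibitor Sesn2 (1.36 ± 0.18) and the amino acid transporters Slc7a5 (1.29 ± 0.17) and Slc7a1 (1.21 ± 0.15). Of 16 eIF2 genes 3 were called higher and none lower, led by Eif2b1 (1.02 ± 0.16), a subunit of the eIF2B exchange factor. The germ cell factor Creb3l4 was lower in P (-1.21 ± 0.16) and Creb3 higher (0.91 ± 0.23), the 2 calls among 8 sensors and bZIP factors. Calr3 (-1.56 ± 0.22) and Pdilt (-1.30 ± 0.15), chaperones of late germ cells, were the 2 testis chaperones called, both lower in P.

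By age, 23 of 28 ATF4 and CHOP target genes had lower values at PD 52, 6 were called lower and none higher, and the median was -0.36, beside 0.00 over all genes. Of all genes, 5.41% were called lower and 11.9% higher. The largest were the transcription factor Atf3 (-1.81 ± 0.30, 3.51-fold), Phgdh, which opens serine synthesis (-1.52 ± 0.27, 2.86-fold), and Sesn2 (-0.93 ± 0.18, 1.90-fold). Among 16 eIF2 genes, 2 were called lower and none higher, Ppp1r15a, the stress-induced phosphatase subunit GADD34 (-1.06 ± 0.17), and Eif2ak4, the amino acid sensor GCN2 (-0.61 ± 0.14). Of 19 ER chaperones, Hyou1 (-0.68 ± 0.17) and Hsp90b1 (-0.54 ± 0.14) were called lower and Creld2 higher (0.65 ± 0.11). Asns, itself an ATF4 target, was not among the genes called lower. Mbtps1, the protease that cuts ATF6, was lower (-0.60 ± 0.15), whereas Creb3l4 (1.61 ± 0.28), Ube2j1 (1.09 ± 0.23) and Pdilt (1.72 ± 0.29) were higher, each past the test. Over the genes of these lists picked by the naming rule, limma adjusted p-values by stage and age were between 0.00363 and 0.0490. Atf3 is also an immediate early gene, and the part of that response in its difference was not tested.

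**Figure D5:**
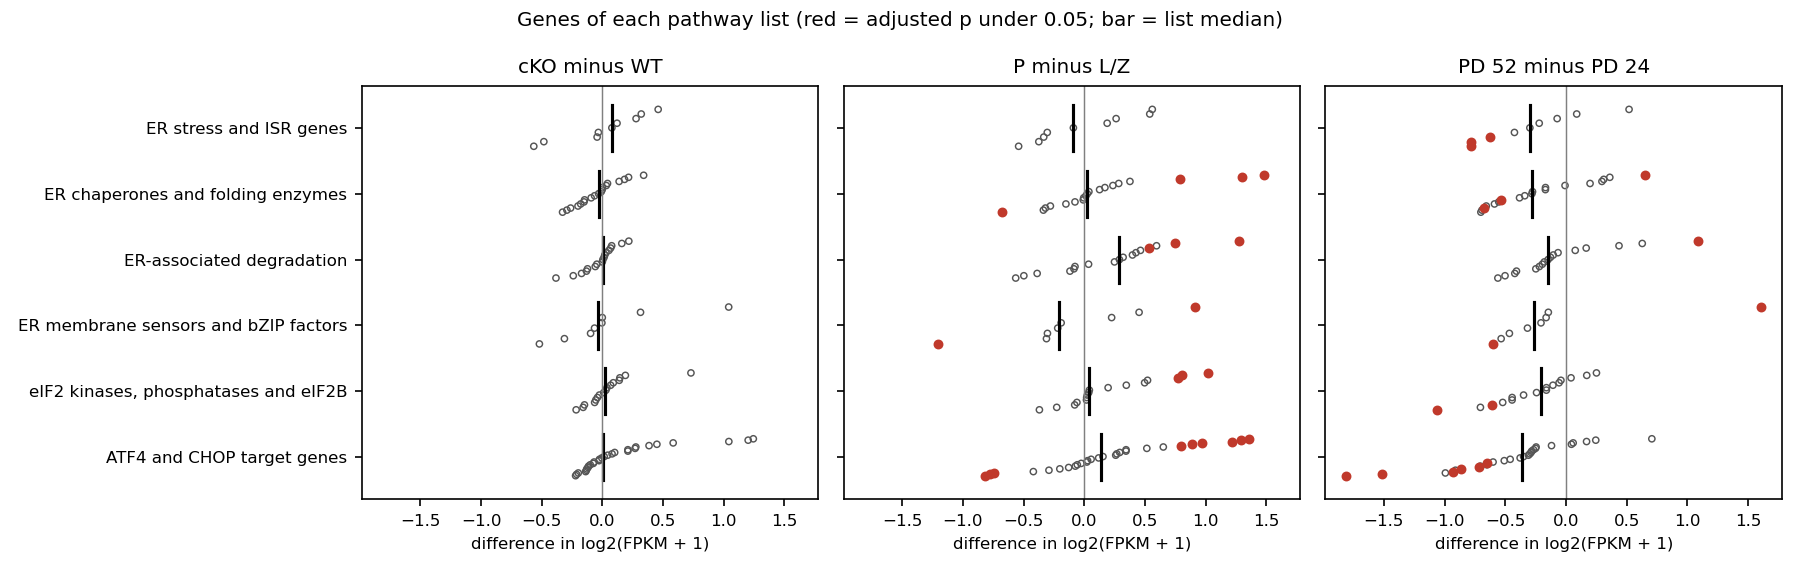
Fitted differences in log2(FPKM + 1) (horizontal axis) of the ER stress and integrated stress response (ISR) genes and of 5 pathway lists, 1 point per gene, for cKO minus WT, P minus L/Z and PD 52 minus PD 24. Red points passed an adjusted p of 0.05 and black bars are list medians, which for the ATF4 and CHOP target genes were 0.00, 0.14 and -0.36.

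Some pathway genes outside the 10 were higher in cKO beyond counting error in every pair, and they are named here after their values were seen. Among genes with a mean above 1 FPKM over the 8 libraries, those counted were 3 of 24 ATF4 and CHOP target genes (Atf3, Cebpb and Gpt2), 1 of 16 eIF2 genes (Ppp1r15a) and 1 of 19 chaperones (Pdia3), against 2.32% of all such genes. There were 0 of 17 genes of ER-associated degradation and 0 of 3 testis chaperones. Creb3l1, of the sensors and bZIP factors, reached that mean mainly through cKO and is not counted. It was at 0.514 to 1.83 FPKM in WT and 1.92 to 4.48 FPKM in cKO. Nupr1, a further target gene, was below 1 FPKM in each WT library and is not counted either. Atf3 went from 52.4 to 64.1 FPKM in P PD 24, from 42.3 to 79.1 in L/Z PD 24, from 10.2 to 25.01 in P PD 52 and from 5.77 to 39.5 in L/Z PD 52. Gpt2, an alanine aminotransferase, went from 3.46 to 7.33, from 1.95 to 6.62, from 4.33 to 10.4 and from 0.983 to 2.46 FPKM in that order. Over the same pairs 9 of 10 immediate early genes, 8 of 8 Leydig markers and 6 of 9 macrophage markers were also higher in every pair, and their part was not tested.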

How the data were processed

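Total RNA from sedimented spermatocytes was sequenced as paired-end reads by the authors' provider, and the authors deposited 1 table of FPKM for 8 libraries, normalised with Novomagic. The submitters' processing notes name CASAVA 1.4 and Bowtie 0.12.2. They name mouse builds mm8 and mm9, but gene coordinates in the table matched GENCODE M21 on GRCm38 for 98.3% of genes and for all 10 members. FPKM times gene length fell on whole multiples of 1 step in each library, within 0.01, which gave the read counts used for counting intervals. The deposited values were already on a common median-of-ratios scale. Groups were taken from the sample labels.

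Differences were tested with limma 3.58.1 in R 4.3.3 (lmFit, eBayes with a mean-variance trend) on log2(FPKM + 1), over 21175 genes above 1 FPKM in at least 1 library, with Benjamini-Hochberg adjustment and matched pairs as a block. The spread is that between pairs that differ in stage and age, not between animals. A call was an adjusted p under 0.05, or a 2-fold change within a pair. The fits were tested on simulated data. The fits were recomputed with a pseudocount of 0.1, without the FPKM filter, with further scaling over 11566 genes above 1 FPKM in every library (a gene set chosen after seeing the data), for protein-coding genes alone and without the trend. The fits of genotype over 4 pairs, stage and age were also run without the block and with each pair left out. The members and lists were chosen with earlier results of these data known. Of each list, up to 3 genes called per fit were named, by size of change. For Hspa5 and Ddit3, 2 of the 3 members with the highest mean FPKM, the 3 most similar protein-coding genes by Pearson r were named, and those of Atf4 are not reported here.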

Additional observations from a re-analysis of the deposited data

Results flagged for a closer look

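For 3 of the 10 genes the difference between cKO and WT had 1 sign in both pairs of a stage or age and the opposite sign in both pairs of the other, as differences in log2(FPKM + 1). Ddit3 was lower in cKO in P cells (-0.20 at PD 24 and -0.46 at PD 52) and higher in L/Z cells (0.31 and 0.17). The test of this difference between stages gave -0.57 ± 0.29 (SE) with a limma adjusted p of 0.972. Ern1 was higher in cKO in P cells (0.031 and 0.30) and lower in L/Z cells (-0.11 and -0.35), with a difference of 0.40 ± 0.31 between stages and a limma adjusted p of 0.972. Eif2ak3 was higher in cKO at PD 24 (0.21 in P and 0.28 in L/Z) and lower at PD 52 (-0.087 in P and -0.099 in L/Z), with a difference between ages of -0.34 ± 0.28 and a limma adjusted p of 0.669. None of the 3 differences passed the test.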

How the results depend on the processing

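No member was called for genotype, at either age, or for a difference between ages or stages, under any alternative that was run. By stage, the number of members called rose from 0 to 1 with protein-coding genes alone (Ddit3), and was 0 to 1 with each pair left out. By age, it was 3 in the main analysis, 0 without the FPKM filter, 1 without the trend (Xbp1) and 0 to 3 with each pair left out. Without the block 3 members were called, Atf4, Xbp1 and, in place of Hspa5, Atf6. Direction changed with a pair left out for 4 small differences: the genotype difference of Ddit3 (-0.16 to 0.10, at 0.0083 without P PD 24 and 0.095 without P PD 52) and of Ern1 (-0.14 to 0.071), the stage difference of Ern1 (-0.28 to 0.018) and the age difference of Chac1 (-0.22 to 0.046). A pseudocount of 0.1 took further pair changes past 2-fold, Xbp1 (1.19) and Trib3 (-1.15) in L/Z PD 52 and Chac1 in P PD 52 (-1.17) and L/Z PD 52 (-1.56).

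Counts over all genes moved more. For genotype, 29 genes became 7 with a pseudocount of 0.1, 0 without the filter, 71 with protein-coding genes alone, 18 without the trend, 3 without the block and 0 to 2 with a pair left out (limma; unadjusted p under 0.05 for 1816 to 2099 where none was called). At PD 24, 310 became 586, 0 and 535 under the first 3 of these. At PD 52, 5 became 2, 0, 112 and 3 under the first 4, and 3 with further scaling. The difference between ages, 3 genes, became 74, 0, 204 and 0, and 0 with further scaling. By stage, 6013 became 3010 without the filter and 2369 to 5953 with a pair left out, and by age 3669 became 791 and 0 to 4905. Genes past 2-fold in P PD 24, P PD 52, L/Z PD 24 and L/Z PD 52 numbered 2330, 3364, 3125 and 2683 with a pseudocount of 0.1, and 664, 791, 846 and 602 among protein-coding genes. Removing the filter adds genes near 0 to the tests and limiting them to protein-coding genes removes genes, and beyond this the cause was not tested. With 1 library a group, low genes such as Trib3 and Chac1 are limited by their reads.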
